A study of Rattus norvegicus with 4 samples.

Results

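Caspases, apoptosis-inducing factor, the death receptors Fas and Tnfrsf1a and the ligand Faslg were compared between the ischaemic cortex of estradiol-treated and of placebo-treated rats. The 7 genes were Casp1, Casp2, Casp6, Aifm1, Fas, Faslg and Tnfrsf1a, and no probe set of theirs passed the test between the groups. Every non-control probe set whose only gene symbol in the platform annotation was one of these was taken, which gave 12 of the 8740 non-control probe sets on the array, for 7 of 4736 named genes. The rule used gene names and no threshold on the values, although the genes were proposed with earlier results of these data known. Only 4 of the 7 genes, Casp1, Casp2, Aifm1 and Tnfrsf1a, were bright enough to be tested, with 5 probe sets in all.

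The samples were cortex on the side of a stroke, made by closing the middle cerebral artery from within for 2 h and then releasing it, in female rats without ovaries. Estradiol animals had 17beta-estradiol replaced and placebo animals did not, while ovary removal and stroke were common to both groups. Each of the 4 arrays carried RNA pooled from 3 animals, and each group had 2 independent pools, called estradiol 1 and 2 and placebo 1 and 2. The series text names tissue at 6 and 24 h, and a 6 stands in the sample codes, although the time is nowhere spelled out for these samples. Strain and age are not stated in the labels, and no sham-operated or contralateral sample was analysed here, so the values say nothing of the stroke's own effect. The arrays were Affymetrix rat genome GeneChips, on which a probe set is a group of short oligonucleotides for 1 transcript and yields 1 intensity.

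Caspases are cysteine proteases that cut their targets after aspartate. Ligand-bound death receptors such as Fas and tumour necrosis factor receptor 1 recruit adaptor proteins and initiator caspases, and damaged mitochondria release further activators, both of which lead to executioner caspases. Apoptosis-inducing factor, encoded by Aifm1, works in the respiratory chain of healthy mitochondria and on release moves to the nucleus, where it takes part in DNA breakdown without caspases. All of these are largely regulated by cleavage, binding or relocation of proteins, which RNA levels do not measure. In these pooled tissue samples, fewer cells of a type and less RNA per cell cannot be told apart.

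The background level came from 23 controls on the array that match transcripts of bacteria, yeast or mouse. The brightest of these reached intensities of 33.9 and 37.8 on the estradiol arrays and 37.8 and 30.1 on the placebo arrays, and a value at or below its array's highest control is called at background. Of the 12 probe sets, 4 were above background on every array, 4 on some arrays and 4 on none. The test was limma on log2(intensity + 16) over the 5244 probe sets whose mean over the 4 arrays reached the 40th percentile, an intensity of 37.5. Fold changes below are estradiol minus placebo on this log2 scale, which understates differences of dim probe sets, with SE for the standard error of the fit. Intensities of different probe sets are not comparable with each other, since each binds its target with its own strength.

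**Figure D1:**
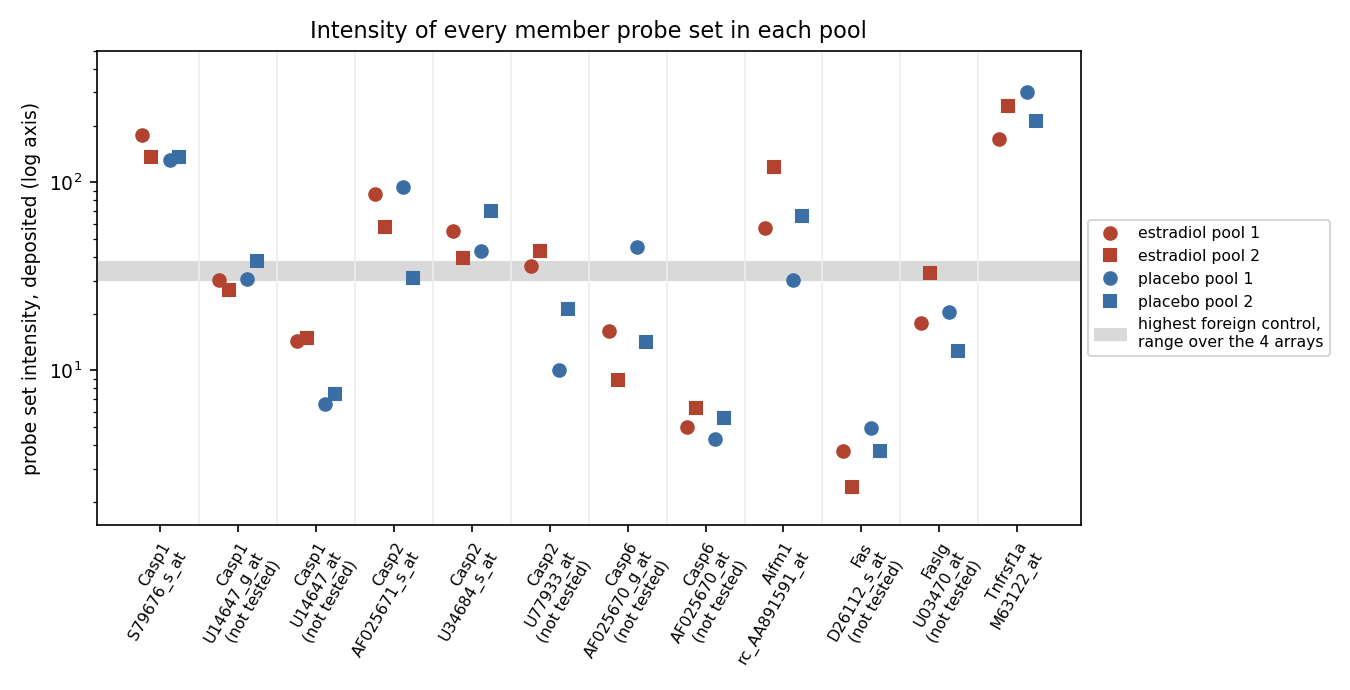
Deposited intensity (log axis) of the 12 probe sets of the 7 genes in each of the 4 pools, with estradiol pools left of placebo pools. The grey band spans the highest foreign control of the 4 arrays, 30.1 to 37.8, and 7 probe sets were too dim to be tested.

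Across the 5 tested probe sets the groups overlapped in every case. Over the whole table, 29.7% of tested probe sets had groups that did not overlap. None of the 5 passed in limma at a Benjamini-Hochberg adjusted p below 0.05, where 0.0% of the 5244 tested probe sets did, and none had an unadjusted p below 0.05, where 3.07% did. The adjusted p was 0.998 for each of the 5 in limma, and their smallest unadjusted p was 0.135, for Aifm1. Log2 fold changes were above 0 for 3 and below 0 for 2, with a median of 0.20, against a median of 0.01 over all tested probe sets. For any single probe set, a two-sided exact permutation test of 2 against 2 pools cannot give a p below 0.333.

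Casp2 encodes an initiator caspase that is linked to cell stress and DNA damage. Its 3 probe sets gave 3 different patterns over the same RNA. AF025671_s_at had intensities of 86.8 and 58.0 in the estradiol pools, against 93.8 and 31.1 in the placebo pools. Placebo 1 was the highest and placebo 2 the lowest, so the estradiol pools lay between the placebo pools. The log2 fold change of this probe set was 0.28 ± 0.43 (SE, limma), with a 95% interval from -0.72 to 1.28. Its SD between pools of a group, 0.65 on the log2 scale, was larger than that of 94.3% of tested probe sets, and the log2 fold change was -0.33 without placebo 2 and 0.89 without placebo 1.

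The Casp2 probe set U34684_s_at stood at 54.8 and 39.6 in the estradiol pools, against 43.0 and 70.4 in the placebo pools. Here placebo 2 was the highest pool, the opposite of its place in AF025671_s_at. The log2 fold change was -0.19 ± 0.34 (SE, limma), with a 95% interval from -0.98 to 0.61, and it was 0.09 without placebo 2 and -0.46 without placebo 1.

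The remaining Casp2 probe set, U77933_at, was too dim for the test, with 35.8 and 43.1 in the estradiol pools, against 10.0 and 21.1 in the placebo pools. Both estradiol pools were just above background and both placebo pools were at background, which gives a difference of at least 1.16-fold, higher with estradiol. That bound sets the mean log2 intensity of the estradiol pools against the highest foreign control of each placebo array. It depends on the limit of each single array, since estradiol 1, at 35.8, lay below the 37.8 of estradiol 2 and placebo 1. A limma fit of all 8740 probe sets without the intensity filter took the placebo readings, which were at background, as measured. It gave a log2 fold change of 0.83 ± 0.32 (SE) with an adjusted p of 0.999, which is no measured fold. U77933_at was the 1 probe set of the 12 with an unadjusted p below 0.05 in that fit (0.0365). Over all probe sets, 3.86% had one and 0.0% passed after adjustment. Leaving out 1 pool gave log2 fold changes between 0.58 (without placebo 1) and 1.09 (without placebo 2). An offset of 1 gave 1.37 and an offset of 64 gave 0.38, so the size of the fitted value rests on readings at background. The other 2 Casp2 probe sets overlapped between the groups and had fitted values of opposite sign, so the gene as a whole had no direction common to its probe sets.

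Among 9 marker lists, the sum for striatum, the tissue under the cortex, ran in the same order over the pools as U77933_at, which was noticed after the values were seen. The summed intensity of 8 genes was 1505 and 1680 in the estradiol pools, against 674 and 871.1 in the placebo pools. Of the 8, 5 were above background on every array, while Drd2 and Gpr6, a dopamine receptor and an orphan receptor of striatal neurons, were at background on every array. Drd1, Rgs9 and Tac1, 3 of the 8, ran in that order singly, whereas Adora2a and Pde1b overlapped between the groups. Rgs9 was above background in estradiol 2 alone, so its order over the other pools is not measured. Without Penk and Tac1, the brightest of them, the sums were 483.1 and 745.4 in the estradiol pools, against 391.4 and 476.1 in the placebo pools. The part of striatal tissue in the value of U77933_at was not tested. With 4 pools and 9 lists, shared orders are common, and other probe sets had them too. Casp6 AF025670_g_at, above background in placebo 1 alone, ran in the order of the astrocyte, neutrophil and oligodendrocyte sums. Casp1 U14647_at, at background on every array, ran in that of the striatum sum.

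**Figure D2:**
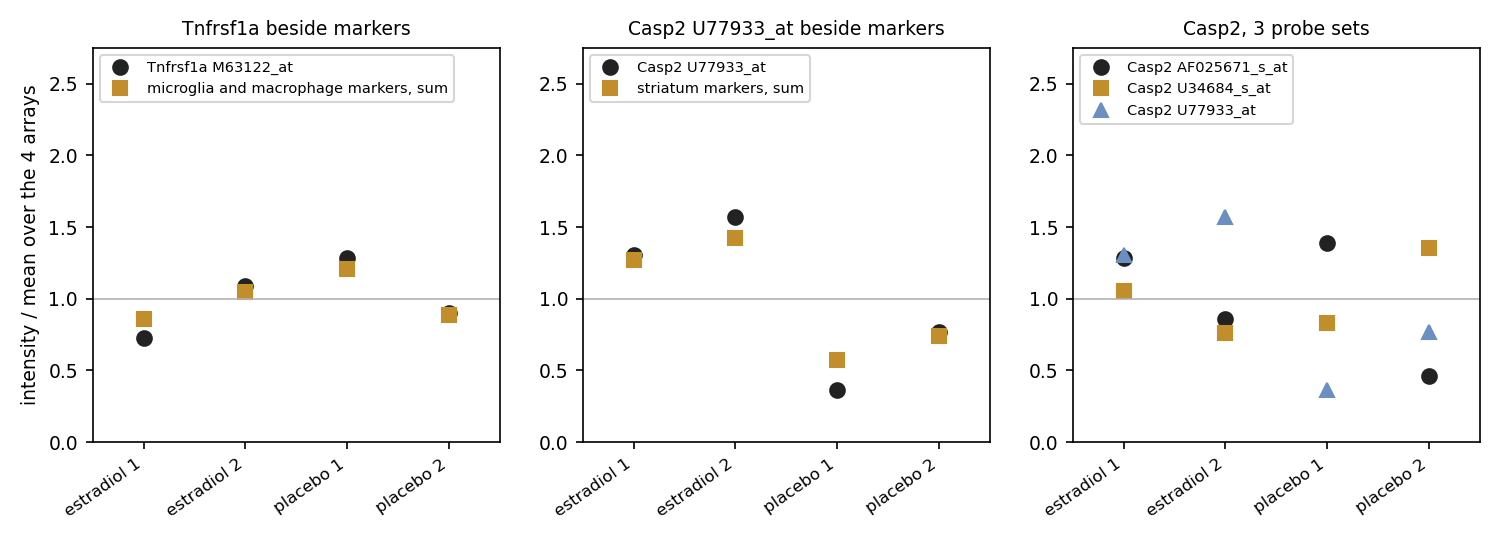
Intensity of 1 probe set or summed intensity of a marker list in each pool, divided by its mean over the 4 arrays. Tnfrsf1a runs in the order of the microglia and macrophage sum, in which 0 of 10 genes singly have that order. Casp2 U77933_at runs in that of the striatum sum, in which 3 of 8 do, among them Rgs9, above background in estradiol 2 alone. The 3 Casp2 probe sets follow different orders, with placebo 2 lowest in AF025671_s_at and highest in U34684_s_at.

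Casp1 encodes the inflammatory caspase that turns the precursors of interleukin-1 beta and interleukin-18 into their active forms. Its bright probe set, S79676_s_at, had 177.5 and 136.3 in the estradiol pools, against 130.7 and 136.6 in the placebo pools. Estradiol 1 stood apart above 3 pools of nearly equal intensity. The log2 fold change was 0.20 ± 0.23 (SE, limma), with a 95% interval from -0.34 to 0.74, and it was 0.03 without estradiol 1 and 0.37 without estradiol 2. On the fold scale that interval runs from 0.788 to 1.67. Its SD between pools, 0.18 on the log2 scale, was below the median of 0.23 over tested probe sets, so this was the most closely measured of the 5.

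The other Casp1 probe sets were dim and were not tested. U14647_g_at had 30.3 and 26.8 in the estradiol pools, against 30.6 and 38.1 in the placebo pools, and was above background in placebo 2 alone. U14647_at had 14.3 and 14.9 in the estradiol pools, against 6.6 and 7.5 in the placebo pools, all at background, so no fold is given. The groups did not overlap in either of these, with estradiol lower in U14647_g_at and higher in U14647_at, although both were designed on the same sequence record. In all, 3 of the 7 untested probe sets had groups that did not overlap, where 32.4% of the 3496 probe sets below the filter did.

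Casp6 encodes an executioner caspase that cuts nuclear lamins and, in neurons, takes part in axon degeneration. Its probe set AF025670_g_at had 16.1 and 8.9 in the estradiol pools, against 45.2 and 14.2 in the placebo pools. Only placebo 1 was above background, so the groups could not be compared. AF025670_at had 5.0 and 6.3 in the estradiol pools, against 4.3 and 5.6 in the placebo pools, at background on every array.

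Aifm1 had the highest log2 fold change among the 5 tested probe sets. Its probe set rc_AA891591_at stood at 56.8 and 120.8 in the estradiol pools, against 30.3 and 66.1 in the placebo pools. Estradiol 2 was the highest and placebo 1 the lowest and at background, while estradiol 1 lay below placebo 2, so the groups overlapped. Means were 88.8 ± 45.3 with estradiol and 48.2 ± 25.3 with placebo (SD, n = 2 each). The log2 fold change was 0.69 ± 0.42 (SE, limma), with a 95% interval from -0.27 to 1.66, and its size was above that of 95.8% of tested probe sets. Its SD between pools, 0.61 on the log2 scale, was in turn above that of 93.1% of them. In the order of unadjusted p-values it came 530th of 5244. The log2 fold change stayed above 0 with any 1 pool left out, at 0.24 without estradiol 2 and 1.15 without estradiol 1.

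**Figure D3:**
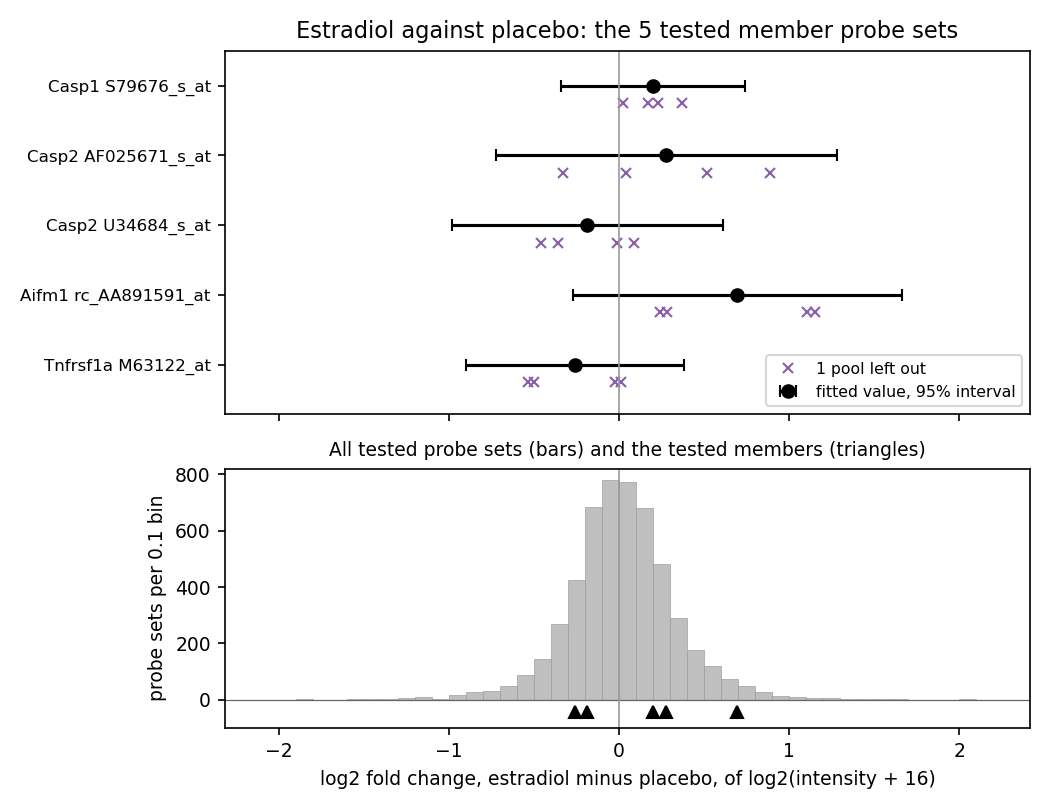
Top, fitted log2 fold change (estradiol minus placebo, of log2(intensity + 16)) of the 5 tested probe sets with 95% limma intervals, and the value with each pool left out in turn (crosses). Bottom, number of tested probe sets per bin of log2 fold change, with the 5 members as triangles. Every interval includes 0, and the members lie between -0.26 and 0.69.

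Tnfrsf1a encodes the main death receptor for tumour necrosis factor, found on most cell types. Its probe set M63122_at was above background in every pool, with 169.9 and 255.2 in the estradiol pools, against 301.4 and 212.0 in the placebo pools. Placebo 1 was the highest and estradiol 1 the lowest, with the other two pools between them. Means were 212.6 ± 60.3 with estradiol and 256.7 ± 63.2 with placebo (SD, n = 2 each). The log2 fold change was -0.26 ± 0.28 (SE, limma), with a 95% interval from -0.90 to 0.38, or from 0.535 to 1.30 on the fold scale. Without estradiol 1 it was 0.01, and without estradiol 2 it was -0.53.

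For microglia and macrophages, the immune cells of injured brain, the marker sum ran in the order of Tnfrsf1a, but no single marker did. This match, too, was noticed after the values were seen. The summed intensity of 10 genes was 934.9 and 1145 in the estradiol pools, against 1317 and 964.1 in the placebo pools. The order rested on Lyz2, a lysozyme gene, without which the sums were 649.3 and 891.0 in the estradiol pools, against 803.8 and 706.2 in the placebo pools. Of the 10, 7 were above background on every array, and Itgam and Csf1r, which encode an integrin chain and a growth factor receptor of these cells, were at background on every array. Choroid plexus and meninges markers, led by Ttr, also differed between the pools of a group, with sums over 6 genes of 654.4 and 5093 in the estradiol pools, against 8982 and 493.2 in the placebo pools. The part of either tissue in the Tnfrsf1a value was not tested.

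Fas, the death receptor for Fas ligand, was at background on every array. Its probe set D26112_s_at had 3.7 and 2.4 in the estradiol pools, against 4.9 and 3.7 in the placebo pools. Faslg, the ligand, which is best known from activated T cells and natural killer cells, was also at background, with 17.9 and 32.7 in the estradiol pools, against 20.4 and 12.6 in the placebo pools. The difference between the groups was therefore not detectable for this ligand and receptor pair with these probe sets. Of 9 lymphocyte and natural killer cell markers with a probe set, 2 were above background on every array, and Cd3d, Cd2, Cd5, Klrd1 and Prf1 were at background on every array. Their summed intensity was 313.0 and 315.5 in the estradiol pools, against 243.4 and 349.7 in the placebo pools. The array also carries a control probe set for mouse Fas, which is no member. It stood at 3.5 and 11.6 in the estradiol pools, against 15.6 and 16.7 in the placebo pools. As 1 of the 23 controls that set the background level, it could not lie above that level.

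The genes whose pattern over the 4 arrays was most like that of a member were found by the root mean square distance between log2 values centred on each probe set's mean. For Casp2 (AF025671_s_at) they were Id1, at a distance of 0.032, and Hmox1, at 0.037. For Aifm1 they were Wipf3 at 0.093 and P2rx6 at 0.10, and for Tnfrsf1a Maob at 0.046 and Grik4 at 0.054. Casp1 was left out, since its range over the arrays, 0.40 on the log2 scale, was below the median range of 0.54. With 4 arrays and 5244 probe sets, close matches are common, and these distances are descriptions.

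Other genes of the death pathways were read from lists of receptors, adaptors, substrates and inhibitors. Of 95 genes in 8 lists, 47 had a named probe set and 35 were tested, each by its brightest probe set. None of the 35 passed in limma after adjustment. Log2 fold changes were above 0 for 15 and below 0 for 20, with a median of -0.07, against 0.01 over all tested probe sets. The groups did not overlap for 2 genes that were higher with estradiol and 6 that were lower, or 22.9% of the 35, against 15.4% higher and 14.3% lower among all tested probe sets. Of the 2 higher genes, Adam17 passed the intensity filter through the estradiol pools alone, so its place was set by the filter. At an unadjusted p below 0.05 there were 1 higher gene and 0 lower, where 1.74% of all tested probe sets were higher and 1.33% lower. That gene was Ddit3, a stress transcription factor, named after its value was seen. It stood at 119.6 and 204.1 in the estradiol pools, against 103.6 and 74.8 in the placebo pools, a log2 fold change of 0.73 ± 0.30 (SE, limma) with an adjusted p of 0.998, or 0.38 without estradiol 2.

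The list around the death receptors held the lowest value, for Tnfrsf11b. Of its 6 tested genes, 1 had a log2 fold change above 0 and 5 below, with a median of -0.32. The gene above 0, Adam17, is set apart, since its groups were separated through the intensity filter. Among the other 5 the groups did not overlap for 3, all lower with estradiol. Over all tested probe sets, 29.7% had such groups in either direction. The 3 lower genes were Ngfr, Adam10 and Faim2. They encode the low-affinity neurotrophin receptor, a membrane protease that sheds surface proteins and an inhibitor of Fas signalling in neurons. Fitted values were -0.37 for Ngfr, -0.34 for Adam10 and -0.30 for Faim2. With 1 pool left out they were -0.24 for Ngfr and -0.20 for Adam10, both without estradiol 2, and -0.17 for Faim2 without placebo 2. Adam17, the protease that sheds tumour necrosis factor and its receptors, had 60.5 and 51.8 in the estradiol pools, against 35.2 and 20.2 in the placebo pools. Both placebo pools were at background, which gives a difference of at least 1.66-fold, higher with estradiol (limma, adjusted p = 0.998). Its probe set passed the intensity filter through the estradiol pools alone, so it had to lie higher there. Tnfrsf11b, which encodes the decoy receptor osteoprotegerin, had 46.8 and 83.5 in the estradiol pools, against 134.9 and 80.9 in the placebo pools, a log2 fold change of -0.61 ± 0.34 (SE, limma, adjusted p = 0.998). Its groups overlapped, and its value was -0.28 without estradiol 1. Tnf itself was at background on every array.

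In the remaining lists, apart from Ddit3, log2 fold changes lay between -0.43 and 0.40. The list around caspase-1 and the interleukin-1 family had 3 tested genes of 6 with a probe set. Their log2 fold changes were 0.09 for Il1b, 0.02 for Il1a and -0.15 for Il18. Of 9 tested genes of mitochondrial release and the apoptosome, 5 were above 0 and 4 below, with a median of 0.01, among them Diablo, which frees caspases from their inhibitors, with 0.24, or -0.15 without estradiol 2. The groups did not overlap for 2 of the 9, Bak1 and Bcl2l1, which promote and restrain mitochondrial release. Both were lower with estradiol, with log2 fold changes of -0.33 for Bak1 and -0.27 for Bcl2l1, which were -0.18 and -0.06 without estradiol 2. Parp1, a DNA repair enzyme that caspases cut and whose overactivity triggers release of apoptosis-inducing factor, had -0.07, and Sptan1, a spectrin cut by calpains and caspases, -0.01. Of 7 tested genes in the list of other death proteases, 6 had values below 0, with a median of -0.14. Among these 6 was Cast, at -0.28, which encodes an inhibitor of calpains and no protease. The groups did not overlap for 1 of the 7, Ctsd, the lysosomal protease cathepsin D, with -0.43. Both shares, 2 of 9 and 1 of 7, were below the 29.7% of all tested probe sets. Of 6 tested genes in the list of transcription factors, 5 had values above 0, with a median of 0.28. Among these 5 was Nfkbia, at 0.19, which encodes an inhibitor of such factors and is not one itself. The single tested caspase inhibitor, Cryab, a small heat shock protein, had 0.31, or -0.07 without placebo 2. No other caspase was analysed here.

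**Figure D4:**
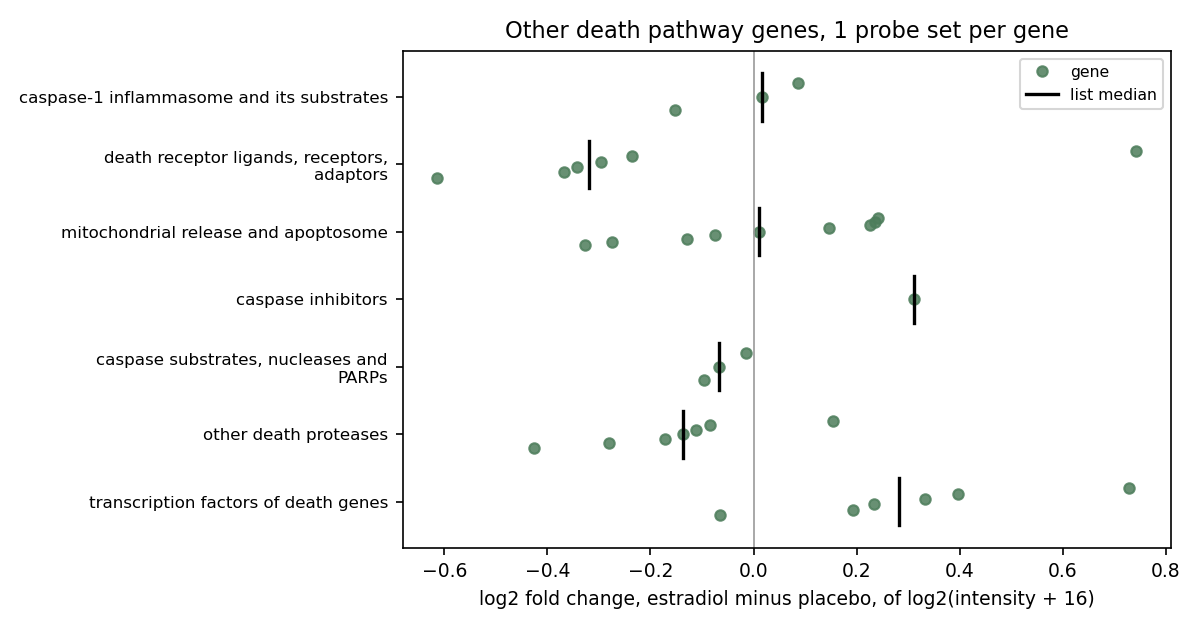
Log2 fold change (estradiol minus placebo, of log2(intensity + 16)) of the 35 tested genes in 7 lists, each gene by its brightest probe set, with the median of each list as a bar. Most points lie within 0.5 of 0, the lowest gene is Tnfrsf11b at -0.61, and the rightmost point of the death receptor list is Adam17, whose placebo pools were at background, so its place is not a measured fold.

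Over the whole series, the median intensity of the arrays lay between 57.2 and 57.8 with estradiol and between 55.0 and 56.8 with placebo, and 58.9 to 64.6% of probe sets were above background. Neuron markers were present, with 6 of 8 above background on every array, although Slc17a7, a glutamate transporter of cortical neurons, was at background. Sums of striatum and of vascular cell markers did not overlap between the groups, with vascular sums of 552.3 and 509.3 in the estradiol pools, against 738.3 and 665.3 in the placebo pools. Of the 6 vascular markers with a probe set, only Ocln and Slco1a4 were singly lower in both estradiol pools. Over all tested probe sets, 29.7% had groups that did not overlap, so such a count is no result about vascular cells. Pecam1, Kdr and Flt1 overlapped between the groups, and Vwf was at background on every array. The 2 pools per group limit the precision of every value above.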

How the data were processed

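The values were linear probe set intensities that the authors deposited in 1 table. The 4 arrays had been brought to a common level before deposit, judged from the values, and no label or file header names the program used. The medians of the arrays spanned 0.072 in log2 units, less than a limit of 0.1, so the deposited intensities were not rescaled.

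The table had 8799 rows, and its 59 control probe sets were not tested. The platform annotation gave 7006 of the other 8740 a single symbol, 308 several and 1426 none, and a RefSeq table (assembly GRCr8), used for names alone, held all 7 genes. Differences were fitted with limma 3.58.1 in R 4.3.3 (lmFit, eBayes with an intensity trend, two-sided) on log2(intensity + 16) for probe sets at or above the 40th percentile of mean intensity. There were 2 residual and 5.63 prior degrees of freedom, and Benjamini-Hochberg adjustment ran over all 5244 probe sets. The fit was also run on simulated data with changes larger than those of the members, so that run says nothing of changes of their size. Tables and plots used Python 3.11.15, pandas 2.3.3 and matplotlib 3.10.9.

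Named were all 7 genes with every probe set, the 2 genes nearest to each member of sufficient range, and the highest and lowest gene of the pathway lists. Others were named after their values were seen. The members and lists were chosen with earlier results of these data known. Alternatives were other offsets, filters, scalings and variance settings, the pool number as a block, and each pool left out in turn. Pools are labelled as independent, and no label pairs the same-numbered pools of the 2 groups. The deviations of estradiol 1 and placebo 1 from their group means had a correlation of 0.036 over tested probe sets. Whether same-numbered pools shared a processing step was not tested.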

Additional observations from a re-analysis of the deposited data

How the results depend on the processing

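No probe set of the table passed in limma after adjustment under any alternative run, and the adjusted p of the 5 tested probe sets was 0.956 or higher in all 57 values under the 12 alternative settings. Of these 57 values, 3 changed sign, each with a pool left out. With 1 pool left out, the log2 fold change lay between -0.33 (without placebo 2) and 0.89 (without placebo 1) for Casp2 AF025671_s_at, between -0.46 (without placebo 1) and 0.089 (without placebo 2) for U34684_s_at, and between -0.53 (without estradiol 2) and 0.012 (without estradiol 1) for Tnfrsf1a. The median log2 fold change of the 5, 0.20, was -0.031 with the filter at the 60th percentile, which left 2 of them, and lay between 0.026 and 0.24 with 1 pool left out. It was lowest without estradiol 1, and 0.089 without placebo 2. With the replicate block, 0 probe sets passed, 123 higher and 87 lower had an unadjusted p below 0.05, against 91 and 70 without it, and the median was again 0.20. After median centring these counts were 71 and 90. Without the mouse controls, 4 of the 12 probe sets were at background, as with them. The fits of U77933_at without the filter were added after seeing the data. The 2 pools per group and the fact that 8 of the 12 probe sets were at background on at least 1 array limit these results.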
